A study of Mus musculus with 4 samples.

Results

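The miRNAs described here are 4 probes, miR-26a, miR-26b, miR-101a and miR-101b, of the 696 miRNA probes on Agilent arrays of mouse tooth germ RNA. They were chosen by name (the mouse entries without an asterisk, which marks the minor arm of a precursor), with earlier results of these data known. All 4 were detected at every stage, as were 197 of the 696 probes. Total RNA came from the germs of the mandibular molars of embryos of ICR mice, an outbred laboratory strain, without treatment, at 4 embryonic stages, E11, E12, E14 and E16, each named by its embryonic day. Each stage is represented by 1 array, and the sources used here do not say how many embryos or litters went into it. No p-value and no spread between animals can therefore be given for any difference between stages.

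MicroRNAs guide Argonaute proteins to mRNAs that pair with the seed, the bases near the 5′ end of the miRNA, and lower their translation and stability. miR-26 and miR-101 are both known for pairing with the mRNA of Ezh2, the catalytic subunit of Polycomb repressive complex 2, which methylates histone H3 and keeps developmental genes silent. The miR-101 link was described in human cancer cells and the miR-26a link in mouse muscle precursor cells. These arrays measure miRNAs alone, so Ezh2 itself was not measured. In this window the dental epithelium thickens, buds into the mesenchyme and folds into a cap and then a bell, in which the cells that will make enamel and dentine differentiate.

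The mature sequences are shown because the families share no seed, while the members of a family differ by only 1 or 2 of their aligned bases. They are given 5′ to 3′ from RefSeq (GRCm38.p6), with bases 2 to 8 in capitals. All 4 names matched the table, through the 5p arm for miR-26 and the 3p arm for miR-101.

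mmu-miR-26a: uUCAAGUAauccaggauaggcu

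mmu-miR-26b: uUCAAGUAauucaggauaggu

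mmu-miR-101a: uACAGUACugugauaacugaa

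mmu-miR-101b: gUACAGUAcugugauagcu

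miR-26a and miR-26b carry the same seed, UCAAGUA, which pairs with TACTTGA in the DNA sense of a target. Over the 21 bases both have, they differ by C11U and C21U, counted from the 5′ end of miR-26a with the base of miR-26a first. miR-101a has the seed ACAGUAC. RefSeq starts miR-101b 1 base further upstream, so the same 7 letters lie at its bases 3 to 9. Aligned with that shift, 17 of 18 bases are identical and the remaining one is A16G, counted along miR-101a. The probe sequences are not given in the files, and members of a family may bind each other's probes, so the measurements within a family are not fully separate.

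The 4 miRNAs come from 5 genes. The identical mature miR-26a is made from Mir26a-1 at chr9:119031811-119031832, on the plus strand inside the annotated span of Ctdspl. A second copy, Mir26a-2, lies at chr10:126995543-126995564, on the plus strand within Ctdsp2. miR-26b is at chr1:74394324-74394344, on the plus strand within Ctdsp1. All 3 host genes encode small phosphatases that act on the C-terminal domain of RNA polymerase II. miR-101a lies at chr4:101346957-101346977 on the minus strand, in the span of the non-coding gene E130102H24Rik, and miR-101b at chr19:29135338-29135356 on the plus strand, within Rcl1, which is known for a role in ribosomal RNA processing. The arrays cannot say which of the 2 copies of miR-26a a signal came from.

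Signals are first given as deposited, as intensities on a linear scale with the error that each array states. Probes differ in affinity, so a signal is compared only with the same probe at another stage. miR-26a had 537 ± 40.1 at E11, 1376 ± 102 at E12, 1470.3 ± 108 at E14 and 2192 ± 161 at E16. Its lowest value was at E11 and its highest at E16, while E12 and E14 lay within 1 error of each other. miR-26b gave 170.1 ± 13.5, 455 ± 34.2, 338 ± 25.4 and 625 ± 46.2 at E11, E12, E14 and E16. It also started lowest and ended highest, but its E14 value was below that of E12. For miR-101a the signals were 11.4 ± 3.60, 47.1 ± 7.22, 27.4 ± 5.37 and 68.1 ± 7.63 at E11, E12, E14 and E16. For miR-101b they were 12.7 ± 3.65, 25.1 ± 5.17, 20.3 ± 4.10 and 56.8 ± 7.28 in the same order. Both miR-101 probes were thus lowest at E11 and highest at E16, with E14 below E12; for miR-101b the intervals of 1 error at E12 and E14 overlapped.

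**Figure D1:**
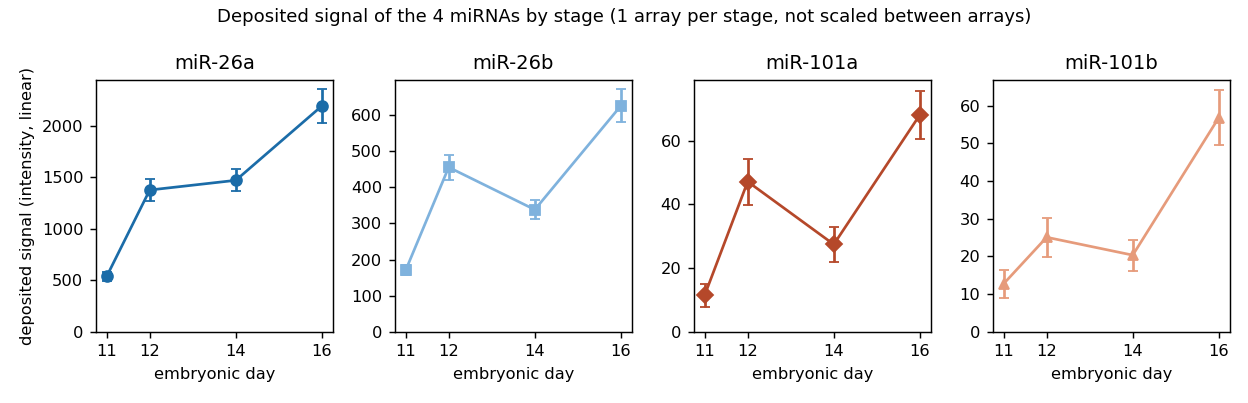
Deposited signal (linear intensity) of each miRNA against embryonic day, with a separate vertical axis for each because probes are not comparable; points are single arrays and bars the error stated by the array. All 4 are lowest at E11 and highest at E16, and miR-26b, miR-101a and miR-101b are lower at E14 than at E12.

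The precision of the families differs. The stated error was 7.36% to 7.94% of the signal for the miR-26 probes, but 11.2% to 31.5% for the miR-101 probes. The E11 signals of the miR-101 probes, 11.4 and 12.7, lay near the lower end of the detected range (lowest 5.48, median 76.6). Their E16 signals, 68.1 and 56.8, stood further above it (lowest 6.51, median 114). At E11 the signal of miR-101a was 3.18 times its error and that of miR-101b 3.49 times, close to the lowest ratio among detected miRNAs on that array, 3.06. Every difference of miR-101 against E11 rests on these faint values. The opposite arms on the arrays, miR-26b* and miR-101a*, were not detected at any of the 4 stages.

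Brightness differed between arrays as a whole: the 75th percentile of log2 signal, taken over the miRNAs detected throughout, was 1.44 higher for E16 than for E11. Differences below are therefore log2 differences after each array was set to that percentile, later minus earlier, with both stated errors combined. On this scale the 205 miRNAs detected at both E16 and E11 had a median of -0.74, and without scaling it was 0.69, so the members are read beside it. The range over 6 scalings follows the main results. A miRNA counted as higher or lower at 2-fold or more, which is a rule of size and not of significance. Each error is stated within 1 array, so a multiple of it takes in no variation between arrays or animals.

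The comparison of E16 with E11 asks how the 4 miRNAs differ between the ends of the series. All were higher at E16, and they lay between 0.44 and 1.14 while the median of all miRNAs lay below 0. miR-101a was 2.20-fold higher at E16 (log2 difference 1.14 ± 0.48, 1.08 to 2.57 over the 6 scalings). miR-101b was 1.65-fold higher (0.72 ± 0.45, 0.69 to 2.16), a value within 2 of its errors of 0. Among the miR-26 pair, miR-26a was 1.51-fold higher (0.59 ± 0.15, 0.56 to 2.03) and miR-26b 1.36-fold higher (0.44 ± 0.16, 0.41 to 1.88). None of the 4 changed direction under any of the 6 scalings, though the size depended on them.

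Only miR-101a of the 4 passed 2-fold upward, and none passed downward. Among all 205 miRNAs, 13.7% were higher at E16 by 2-fold or more, and 37.6% were lower by as much. The call of miR-101a is lost where a signal of at least 5 errors is required at both stages, since its E11 signal does not reach that. With median scaling 3 of the 4 passed 2-fold upward, and on the deposited signals all 4 did. The median of all miRNAs was then -0.23 and 0.69, and the share of all miRNAs passing was not counted under either. Within the order of the 205 differences, miR-101a stood in place 27 from the top, miR-101b in place 38, miR-26a in place 42 and miR-26b in place 45. Scaling by a constant leaves these places as they are. In that order the direct neighbours were miR-195 (1.16 ± 0.43) above and let-7a (1.10 ± 0.15) below miR-101a, and miR-140 (0.73 ± 0.31) above and miR-205 (0.66 ± 0.15) below miR-101b. miR-26a stood between miR-484 (0.59 ± 0.41) and miR-411 (0.56 ± 0.36), and miR-26b between miR-96 (0.54 ± 0.15) and miR-322 (0.44 ± 0.16). The members' median was 0.66, and 34.6% of all miRNAs had a difference above 0.

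**Figure D2:**
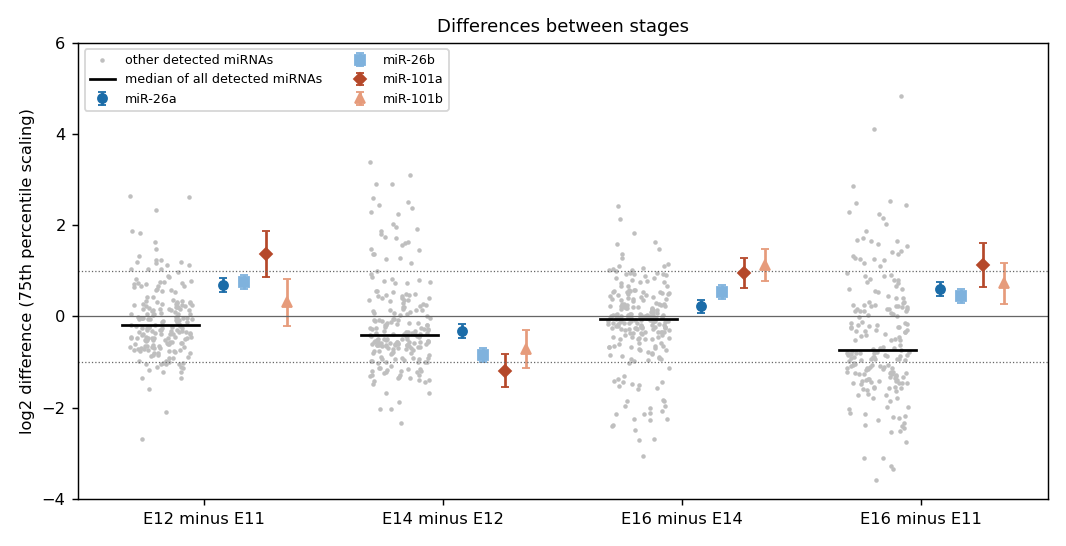
Log2 differences between stages after 75th percentile scaling, for the 3 steps and for E16 minus E11. Coloured points are the 4 miRNAs with their combined array error, grey points the other miRNAs detected at both stages, black bars the median of all, and dotted lines mark 2-fold. The 4 miRNAs are above 0 at the first and last step and below 0 from E12 to E14.

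From E11 to E12 the 4 miRNAs were already higher. miR-101a was 2.59-fold higher at E12 than at E11 (1.37 ± 0.50) and stood in place 8 of 201 miRNAs detected at both stages. miR-26b (0.75 ± 0.16) and miR-26a (0.69 ± 0.15) each exceeded 4 times their errors, and miR-101b, at 0.31 ± 0.51, was within its error of 0. The median of all miRNAs was -0.20 at this step, and 39.8% of them had a difference above 0. The 2-fold rule took 1 of the 4 upward and 0 downward, against 9.45% and 8.46% of all miRNAs. As before, the call of miR-101a is lost where 5 errors are required at both stages. On the deposited signals 3 of the 4 passed upward, but there the median of all miRNAs was 0.47 and the share passing was not counted. Over the 6 scalings no member changed direction, with 0.51 to 1.36 for miR-26a, 0.57 to 1.42 for miR-26b, 1.04 to 2.04 for miR-101a and 0.13 to 0.98 for miR-101b.

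Between E12 and E14 the direction turned. miR-101a was 2.28-fold lower at E14 than at E12 (-1.19 ± 0.36), miR-26b 1.79-fold lower (-0.84 ± 0.15), miR-101b 1.64-fold lower (-0.71 ± 0.42) and miR-26a 1.24-fold lower (-0.31 ± 0.15). The first 3 were below the median of all 212 miRNAs, -0.40, while miR-26a was just above it with this scaling. Only 32.1% of the 212 had a difference above 0, so most miRNAs were lower at this step. By the 2-fold rule 1 of the 4 was lower and 0 higher, against 15.1% and 12.7% of all. The lower values of miR-26b, miR-101a and miR-101b kept their direction under the 6 scalings, reaching -0.43, -0.78 and -0.30 on the deposited signals. miR-26a turned to 0.10 there, and the 2-fold call of miR-101a was lost without scaling and when arrays were set to their median (-0.95). With quantile normalization miR-26a was also below the median of all, at -0.50 against -0.34.

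From E14 to E16 all 4 were higher again. miR-101b was 2.18-fold higher at E16 than at E14 (1.13 ± 0.34), in place 10 of 231 miRNAs, and miR-101a 1.94-fold higher (0.96 ± 0.33), in place 20. miR-26b was at 0.53 ± 0.15 (0.24 to 0.89 over the 6 scalings) and miR-26a at 0.22 ± 0.15 (0.22 to 0.63). Their order turned with quantile normalization and the authors' table, which gave 0.24 for miR-26b and 0.63 for miR-26a. The median of all miRNAs was -0.06, and 44.6% of them had a difference above 0. Of the 4, 1 (miR-101b) passed 2-fold upward and 0 downward, against 7.36% and 13.4% of all miRNAs. With each of the other 5 scalings miR-101a passed as well, but the share of all miRNAs was not counted under those scalings. The call of miR-101b is lost where signals of at least 5 errors are required, as its E14 signal was 4.96 times its error.

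The course up, down and up was shown by 4 of 4 members and by 45 of the 197 miRNAs detected throughout, or 22.8%. On the deposited signals it was shown by 3 of 4 members and by 72 of the 197, or 36.5%. These counts take the signs alone. With the main scaling, only miR-26b and miR-101a exceeded 2 errors at every step. miR-101b did not from E11 to E12 or from E12 to E14, and miR-26a did not from E14 to E16. Neighbouring steps share an array, so an error at E12 or E14 enters both with opposite sign. Further differences, added after the values were seen, skip a stage. From E12 to E16 the members were at -0.09 ± 0.15 (miR-26a), -0.31 ± 0.15 (miR-26b), -0.24 ± 0.27 (miR-101a) and 0.41 ± 0.35 (miR-101b), of which only miR-26b exceeded 2 errors. With this scaling, the E16 values thus stood nearer to those of E12 than to those of E11 for all 4 members. All 4 differences from E12 to E16 were positive on the deposited signals (0.46 to 1.18) and with median scaling (0.18 to 0.90). miR-26a was below 0 with the main scaling alone. For miR-26b the percentile over all probes gave -0.16, within 2 errors, while quantile normalization and the authors' table gave -0.31. From E11 to E14 they were at 0.37 ± 0.15, -0.09 ± 0.16, 0.18 ± 0.53 and -0.40 ± 0.51 in the same order, and miR-26a alone exceeded 2 errors. These directions depend on the scaling: over the 6, miR-26a ranged from 0.17 to 1.45, miR-26b from -0.28 to 0.99, miR-101a from -0.089 to 1.26 and miR-101b from -0.71 to 0.68. With all probes (0.18), quantile normalization and the authors' table (0.17 each) miR-26a no longer exceeded 2 errors.

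**Figure D3:**
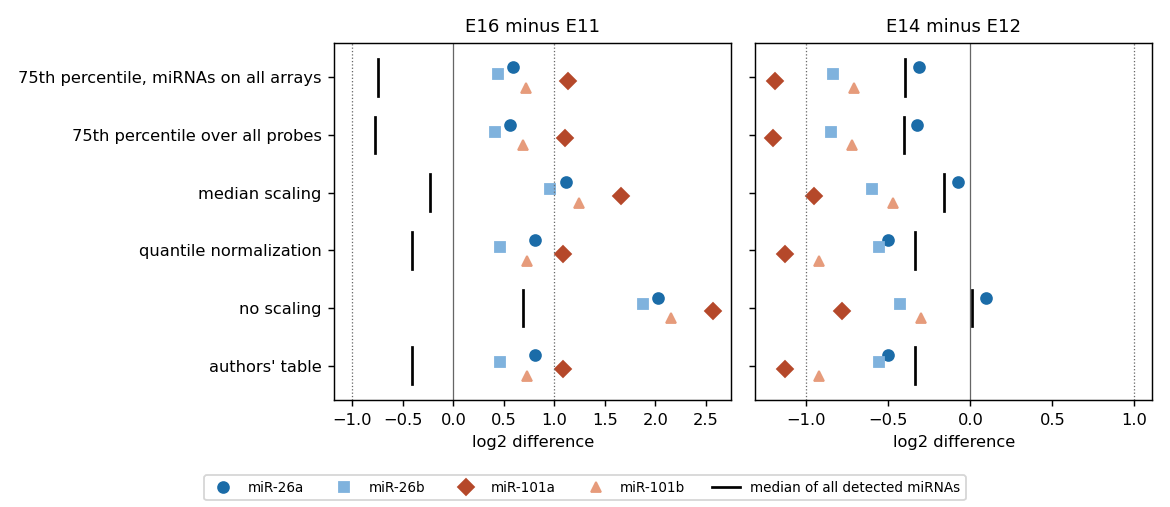
Log2 difference of the 4 miRNAs for E16 minus E11 (left) and E14 minus E12 (right) under 6 scalings, 1 row each; black bars are the median over the miRNAs with a signal at both stages and dotted lines mark 2-fold. On the left all 4 stay above 0 and above the median; on the right miR-26a crosses 0 without scaling. Quantile normalization and the authors' table give the same values.

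A ratio of 2 probes on 1 array does not move with a scaling constant, so changes within a family can be read without choosing one. From E11 to E16 miR-26a changed by 0.15 ± 0.22 more than miR-26b, and miR-101a by 0.41 ± 0.66 more than miR-101b, both within 1 error. The log2 ratio of the miR-26 signals was 1.66 ± 0.16, 1.60 ± 0.15, 2.12 ± 0.15 and 1.81 ± 0.15 at E11, E12, E14 and E16. Its shift of 0.53 ± 0.22 from E12 to E14 was the only one of the 8 within-family comparisons that exceeded 2 errors. Quantile normalization, which is not a constant, leaves 0.055 of that shift. At the next step, where the change was -0.31 ± 0.21, it gives 0.39. The log2 ratio of miR-101a to miR-101b was -0.15 ± 0.61, 0.91 ± 0.37, 0.43 ± 0.41 and 0.26 ± 0.25 in stage order. None of its changes between consecutive stages, nor that from E11 to E16, exceeded 2 errors.

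**Figure D4:**
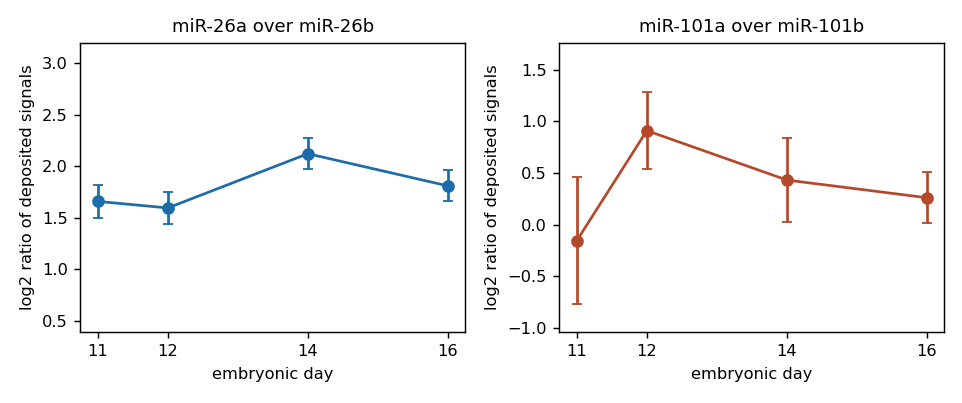
Log2 ratio of the deposited signals within each family against embryonic day, with combined array errors; both panels span the same range. The miR-26 ratio is highest at E14 (2.12), and the miR-101 ratio has wide errors, from 0.25 at E16 to 0.61 at E11. Only changes along a line can be read, since the level depends on the probes.

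Between the families, 3 of 16 comparisons exceeded 2 errors. From E12 to E14 the log2 difference of miR-26a lay 0.88 ± 0.39 above that of miR-101a. From E14 to E16 it lay below those of both miR-101 probes, by -0.74 ± 0.36 against miR-101a and by -0.91 ± 0.38 against miR-101b. Quantile normalization and the authors' table bring the first to 0.63 and the second to -0.54, both under 2 errors, while the third stays past them at -0.80. They also give 3 of 16 past 2 errors, the other two being miR-26b against miR-101a (-0.93) and miR-101b (-1.19) from E14 to E16. From E11 to E16 none of the 4 comparisons between families exceeded 2 errors under any of the 6 scalings. Together 24 pairs were set side by side, and no correction for their number is possible from single arrays.

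Likeness of course was measured as the root mean square distance, in log2 units, between 2 courses over the 4 stages, each centred on its own mean. The other 196 miRNAs detected throughout were compared with each member. For miR-26a the 4 nearest were miR-100 (0.12), miR-30d (0.13), miR-181a (0.14) and miR-322 (0.15), against a median distance of 0.61. Nearest to miR-26b were miR-322 (0.07), miR-100 (0.12), miR-148a (0.13) and miR-411 (0.14), with a median of 0.61 too. The members of the miR-26 family were 0.20 apart, so miR-26b was in place 12 for miR-26a, and miR-26a in place 8 for miR-26b. miR-101a was closest to miR-148a (0.18), miR-411 (0.27), miR-26b (0.28) and miR-376a (0.31), against a median of 0.81. miR-101b had miR-140 at 0.03, whose deposited signals in stage order were 26.0, 51.5, 44.0 and 116.7. It was followed by miR-96 (0.10), miR-15a (0.18) and miR-434-5p (0.18), against a median of 0.67. The members of the miR-101 family were 0.38 apart, which put miR-101b in place 13 for miR-101a, and miR-101a in place 27 for miR-101b. These places are a description of 4 arrays, and with quantile normalization or the authors' table only 7 of the 16 neighbours named stay among the 4 nearest. For the miR-101 probes, the distances of the 4 nearest courses lie below the error of a single log2 signal at E11, 0.45 for miR-101a and 0.41 for miR-101b.

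No further mature mouse sequence in the RefSeq table shares bases 2 to 8 with a member. Bases 2 to 7 are shared by miR-144-3p with miR-101a, by miR-582-5p with miR-101b as RefSeq starts it, and by miR-6371 with the miR-26 pair. The first is shown as the nearest relation of the miR-101 seed that these arrays detected, again with bases 2 to 8 in capitals.

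mmu-miR-144-3p: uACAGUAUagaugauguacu

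The probe of miR-144, a miRNA of red blood cell precursors, was detected at E16 alone, with 15.3 ± 4.41. miR-582-5p was not detected at any stage, and miR-6371 has no probe among those analysed here.

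Other miRNAs known from mouse or human cells to act on Ezh2 mRNA were set beside the members, from a list of 8. Of the 5 detected at both E16 and E11, 4 passed 2-fold upward and 1 passed 2-fold downward, with a median of 1.42, against 13.7% and 37.6% of all 205 miRNAs and their median of -0.74. let-7b (4.12 ± 0.26), let-7c (2.15 ± 0.15), miR-98 (1.42 ± 0.30) and let-7a (1.10 ± 0.15) were the higher ones. All belong to the let-7 family, whose members accumulate as embryonic cells differentiate. miR-214, a mesenchymal miRNA that acts on Ezh2 in mouse muscle precursors, was lower (-2.51 ± 0.15), with 1319.8 ± 100.5 at E16, against 2787 ± 209.8 at E11. miR-137, which acts on Ezh2 in neural stem cells, was detected only at E12 (59.2 ± 7.64) and E16 (47.5 ± 6.76). miR-124 and miR-138 were not detected at any stage. At the step from E12 to E14, where the 4 members had a median of -0.78, the 5 detected members of the list had a median of -0.09, with 2 of 5 above 0.

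For reference, the let-7 family with miR-98 had a median of 1.58 from E11 to E16 and 8 of 9 members at least 2-fold higher, ranging from -0.80 ± 0.15 (let-7e) to 4.12 ± 0.26 (let-7b). The miR-30 family had a median of 0.40 and 2 of 5 higher, ranging from -0.01 ± 0.17 (miR-30c) to 1.54 ± 0.21 (miR-30e). Both counts stand beside the 13.7% of all miRNAs that were higher. No test of a difference between these lists and the members could be made.

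Markers of the tissue's cell types were read from the signals as deposited. The arrays detected 6 of 7 epithelial miRNAs at E11, all but miR-141, and 7 from E12 on. Their summed signals were 1795, 3382, 5363 and 9364 in stage order. Of 6 mesenchymal miRNAs, 5 were detected at every stage and miR-145 at none, with sums of 9338, 14173, 8730.0 and 9635 in stage order. Endothelial sums were 239.8 (2 of 2 detected at each stage), 446, 427 and 791, and those of the erythroid miR-451 and miR-144 were 404, 422, 665 and 1229.7. Of 3 leukocyte probes 0, 1, 1 and 2 were detected, of 4 neural probes 1, 1, 1 and 2 (miR-9 and miR-124 at no stage; sums of 14.6, 39.7, 35.6 and 55.2), and of 4 muscle probes 0 at every stage. As deposited, the mesenchymal, endothelial and neural sums thus also went up, down and up. Probes are not comparable, so a sum mostly follows its brightest probe. Of the mesenchymal miRNAs, miR-199a-3p (5055, 9031, 4824 and 5760), miR-199a-5p and miR-140 went up, down and up. miR-214 was lower at each later stage, and miR-143 was higher at each. The neural sum was miR-128 alone until E16, where miR-128 had 40.2 ± 6.55 and miR-219 had 15.1 ± 4.41. After the scaling used for the members, the medians of the 3 steps were 0.17, -0.66 and -0.10 for 5 mesenchymal miRNAs. For the 2 endothelial ones they were 0.24, -0.79 and 0.64, and for the neural miR-128 the values were 0.77, -0.57 and -0.18. With this scaling, and medians in place of sums, only the endothelial one of these 3 lists went up, down and up. The scaling matters here, as it lowers every difference from E14 to E16 by 0.36. miR-128 went up, down and up as deposited (14.6, 39.7, 35.6 and 40.2) but not after it. Of the mesenchymal miRNAs after scaling, miR-140 (0.32, -0.64 and 1.05) and miR-143 (1.19, -0.08 and 0.56) went up, down and up by sign, and the others did not. The part of cell composition in the courses of miR-26 and miR-101 was not tested. In RNA from whole germs, fewer cells of a type and less RNA per cell cannot be told apart.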

How the data were processed

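The labels' protocols describe Cy3 labelling of dephosphorylated RNA, 100 ng per array, for 1-colour Agilent hybridisation. Per the file headers, each array file lists a total gene signal, its error and a detection flag for 696 miRNAs and 22 control features, which were left out. These intensity values are as deposited, on a linear scale, with 0.1 for undetected entries. Software, array design and background correction are not stated. The authors' series value table holds intensity as well, without centring. Quantile normalization of the array files gave each of its 929 detected values within 0.1%. Its medians over detected values are 123, 106, 83.7 and 83.0 from E11 to E16, and 0.1 over all values.

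Arrays detected 209 to 250 miRNAs, and their number limits the precision. Log2 signals were set to each array's 75th percentile over the 197 miRNAs detected throughout. The 5 other scalings took that percentile over all probes, the median, quantile normalization, the signals unscaled, or the values the authors deposited. Further alternatives were the mean of the other miRNAs, a 1.5-fold rule, 2-fold with over 2 errors, and detection at 5 errors. The text names all members, their 4 nearest courses, their neighbours in the order of E16 against E11, every miRNA of the Ezh2 list and the extremes of the let-7 and miR-30 lists. Members and lists were chosen with earlier results of these data known. Calculations used Python 3.11.15, numpy 2.4.6 and pandas 2.3.3. On simulated arrays 2-fold calls were tested after median scaling only, so calls with the main scaling were not tested in this way.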

Additional observations from a re-analysis of the deposited data

How the results depend on the processing

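None of the 4 differences from E11 to E16 changed direction under any scaling. Median scaling gave 1.11, 0.96, 1.65 and 1.24 for miR-26a, miR-26b, miR-101a and miR-101b, and no scaling gave 2.03, 1.88, 2.57 and 2.16. For miR-26a, quantile normalization and the authors' table each gave 0.81; scaling by the mean of the other miRNAs gave 1.04 for miR-26a and 0.89 for miR-26b. From E11 to E12, no scaling gave 1.36, 1.42, 2.04 and 0.98 in the same order, and the percentile over all probes 0.51 for miR-26a and 0.57 for miR-26b. From E12 to E14, the values for miR-26a and miR-26b were -0.077 and -0.60 with median scaling, -0.50 and -0.55 with quantile normalization and with the authors' table, and 0.10 and -0.43 without scaling, which gave -0.78 for miR-101a. From E14 to E16 they were 0.38 and 0.69 with all probes, 0.47 and 0.78 with median scaling, 0.63 and 0.24 with quantile normalization and the authors' table, and 0.58 and 0.89 without scaling, which gave 1.31 for miR-101a and 1.48 for miR-101b. The change of miR-26a over that of miR-26b was 0.055 (E12 to E14) and 0.39 (E14 to E16) with quantile normalization and the authors' table, and the cause was not tested.

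The number of members at least 2-fold higher from E11 to E16 was 3 with median scaling, 4 without scaling and 0 with detection at 5 errors; 3 passed at 1.5-fold. From E11 to E12 it was 3 without scaling and 0 at 5 errors, with 3 at 1.5-fold. From E12 to E14 0 were 2-fold lower with median scaling or without scaling, and 3 were lower at 1.5-fold. From E14 to E16 2 were higher with each other scaling and at 1.5-fold, and 0 at 5 errors. The share of all miRNAs that passed was not counted under these alternatives. The main scaling gave 1 in each of these comparisons, and requiring over 2 errors beside 2-fold left it at 1. That rule was not applied under the other scalings. Of the 16 nearest courses 7 were shared with quantile normalization or the authors' table, an alternative chosen after seeing the data, as were the scalings of the course, of the differences that skip a stage and of those between the families. No paired analysis was possible because each stage has 1 array. The E11 signals of miR-101a and miR-101b were 3.18 and 3.49 times their errors, which limits their differences against E11.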
